A study of Mus musculus with 12 samples.

Results

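The genes described here are those named as nuclear subunits of the oxidative phosphorylation machinery, taken complex by complex. They were chosen by symbol alone: annotated genes whose names begin with Ndufa, Ndufb, Ndufc, Ndufs or Ndufv and a digit, with Uqcr, with Cox and a digit between 4 and 8, or with Atp5. Where several lines of the table carried one symbol, the line with the highest mean over the 12 arrays was kept. The rule found 80 genes among 20719 genes with a symbol: 37 of complex I, 8 of complex III, 18 of complex IV and 17 of complex V. They are called subunit genes for short, but each was put in a complex by its symbol alone, whether or not its protein belongs there. Among the 17, 2 genes, Atp5s and Atp5sl, carry the name of ATP synthase without being subunits of it. Ndufa4 and Ndufa4l2 are counted in complex I, among its accessory subunits, by name only. Expression microarrays of mouse liver were used, with 1 mouse per array and 3 mice in each of 4 groups. The groups were KO mice starved for 24 h, WT mice starved for 24 h, KO mice that were fed and WT mice that were fed. In the WT starved group 1 title has the code 3 without a letter, and another has S3. The array coded 3 was taken as a separate mouse, as its title gives it. KO mice carried Albumin-Cre and a lamp2 gene with loxP sites around exon 9A, on C57BL/6, so that the deletion was driven in hepatocytes and the other cells of the liver kept the gene; the labels describe these livers as deficient in chaperone-mediated autophagy. Whether the WT mice carried Cre or loxP alleles, and the age and sex of the animals, are not stated in the labels. The questions asked of these genes were whether the subunits of any complex differed between starved and fed livers, and between livers without and with this form of autophagy.

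Oxidative phosphorylation takes electrons from NADH and from other substrates through a chain of protein complexes in the mitochondrial inner membrane and uses the resulting proton gradient to make ATP. Complex I (NADH dehydrogenase) passes electrons to ubiquinone, complex III passes them on to cytochrome c, complex IV (cytochrome c oxidase) reduces oxygen, and complex V (ATP synthase) turns the gradient into ATP. Each is assembled from core subunits that carry the chemistry and from accessory subunits that surround them; some core subunits are encoded by mitochondrial DNA and were not analysed here. In the liver the chain supplies ATP for gluconeogenesis and urea synthesis during a fast, when electrons come largely from fatty acid oxidation. Chaperone-mediated autophagy delivers single proteins to the lysosome through the LAMP2A form of the Lamp2 protein.

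Values are log2 signal after robust multi-array averaging (RMA), and a difference of 1 is 2-fold. Each difference was tested with limma in one fit of all 4 groups, and a gene counted as called at a Benjamini-Hochberg adjusted p under 0.05 over all 20719 genes. Nothing in the labels says how the mice were paired or handled, and precision is limited by how many arrays there are. The 95% interval of a subunit gene's difference had a median half-width of 0.4, against 0.33 over all genes. No file ties the Lamp2 probe set to the deleted exon, so it does not check the genotype; its KO minus WT difference was -0.072 in starved and 0.24 in fed livers. Hepatocyte markers averaged between 13.08 and 13.75 on every array. The arrays were divided into 2 sets at the median SD of their values over all genes. The SD was 2.13 to 2.15 on the 6 wide arrays and 2.0 to 2.08 on the 6 narrow ones. The equal sizes of the sets follow from that cut, and a natural break between them was not tested. Each starved group held 2 wide arrays and 1 narrow one, and each fed group 1 wide array and 2 narrow ones. No label or header says what set the spread.

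The level of the subunit genes separated the arrays by that spread, and every group held arrays on both sides. The mean over the 37 complex I genes lay between 10.21 and 10.39 on the wide arrays and between 10.56 and 10.84 on the narrow ones. For the 8 complex III genes the ranges were 11.04 to 11.18 on wide and 11.28 to 11.56 on narrow arrays. The 18 complex IV genes averaged 9.53 to 9.66 on wide and 9.82 to 9.97 on narrow arrays, and the 17 complex V genes 11.0 to 11.21 on wide and 11.3 to 11.48 on narrow arrays. In none of the 4 complexes did the wide and narrow arrays overlap. Over all genes the array means were 6.98 to 7.02 on wide and 6.94 to 6.99 on narrow arrays. The hepatocyte marker list ran the other way, with array means of 13.61 to 13.75 on wide and 13.08 to 13.55 on narrow arrays. Of its 8 genes Pck1 (wide minus narrow 1.04 with groups held constant), Apob (0.75), Cps1 (0.66) and Tat (0.35) carried this, while Alb, Apoa1, Ttr and Serpina1a lay between -0.039 and 0.038. The same 4 genes had higher means in starved livers, by 1.33 for Pck1, 0.61 for Cps1, 0.49 for Apob and 0.47 for Tat in the average over genotypes, none of them called. Since the spread was computed from all genes, the subunit genes included, these values are a description and were not tested; their source was not tested either. Fewer cells of a type and less RNA per cell cannot be told apart in these bulk samples.

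**Figure D1:**
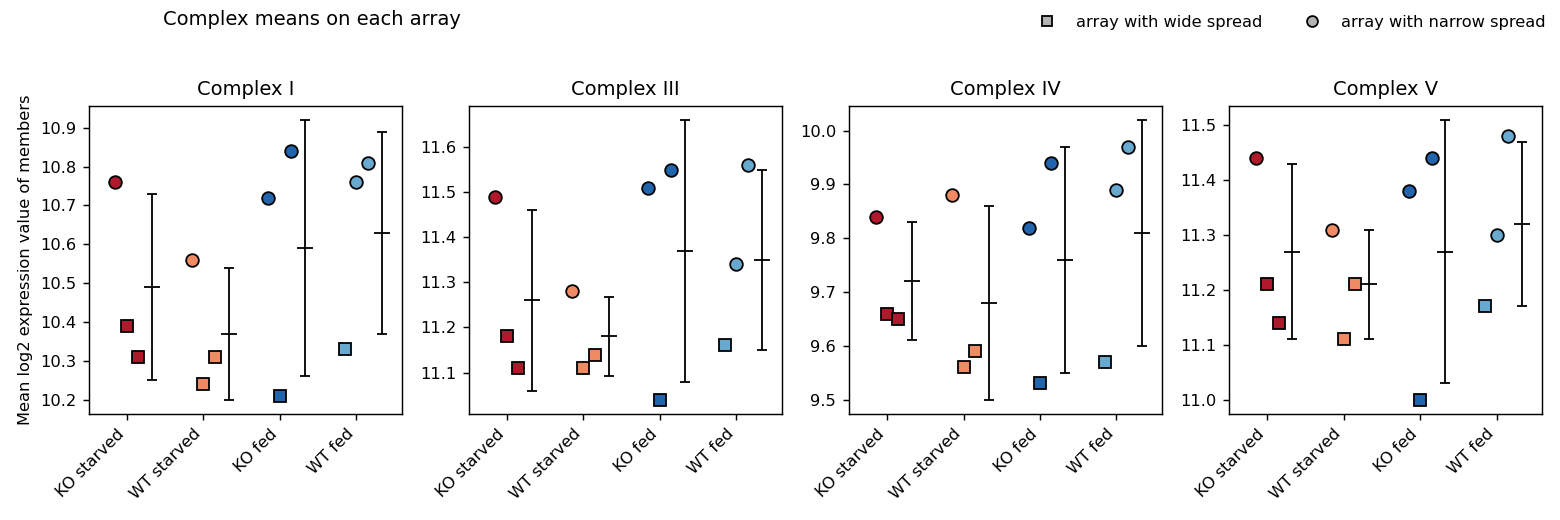
Mean log2 signal of the subunit genes of each complex (y axis) on each of the 12 arrays, by group (x axis: KO starved, WT starved, KO fed, WT fed), with squares for wide and circles for narrow arrays and the bar and line for the group mean ± SD (n = 3). In each panel all squares lie below all circles, so that complex I runs from 10.21 to 10.39 on wide and from 10.56 to 10.84 on narrow arrays, and every group holds both.

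Within each complex the difference between wide and narrow arrays was unequal. In a fit with both group and spread, the wide minus narrow coefficient had a median of -0.43 over complex I, -0.38 over complex III, -0.23 over complex IV and -0.25 over complex V, against -0.045 over all genes. It was below 0 in 70 of the 80 subunit genes (87.5%) and in 57.5% of all genes, and at or below -0.5 in 25 subunit genes (31.2%) and in 3.65% of all genes. The lowest coefficients belonged to small accessory or membrane subunits: Ndufa6 at -1.0, Atp5k (subunit e of ATP synthase) at -0.98, Atp5l (subunit g) at -0.96 and Ndufa1 at -0.94. The 10 genes above 0 were mostly core subunits and subunits of the F1 head. They were Atp5a1 (the alpha subunit of ATP synthase) at 0.49, Uqcrc1 and Uqcrc2 (the core proteins of complex III) at 0.32 and 0.19, Ndufa10 at 0.32, Ndufs1 (an iron-sulfur subunit) at 0.28, Atp5b (the catalytic beta subunit) at 0.27, Atp5d (delta) at 0.18, Ndufv1 (the NADH-binding subunit) at 0.14, Ndufs7 at 0.076 and Atp5sl at 0.053. By role, the median was -0.54 over the 30 accessory and -0.11 over the 7 core subunits of complex I. In complex III it was -0.47 over the 5 small subunits and 0.19 over the 3 core and Rieske proteins. In complex V it was -0.96 over the 3 small membrane subunits, -0.3 over the 4 peripheral stalk subunits, -0.06 over the 3 c-ring genes and 0.18 over the 5 subunits of the F1 head and central stalk.

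**Figure D2:**
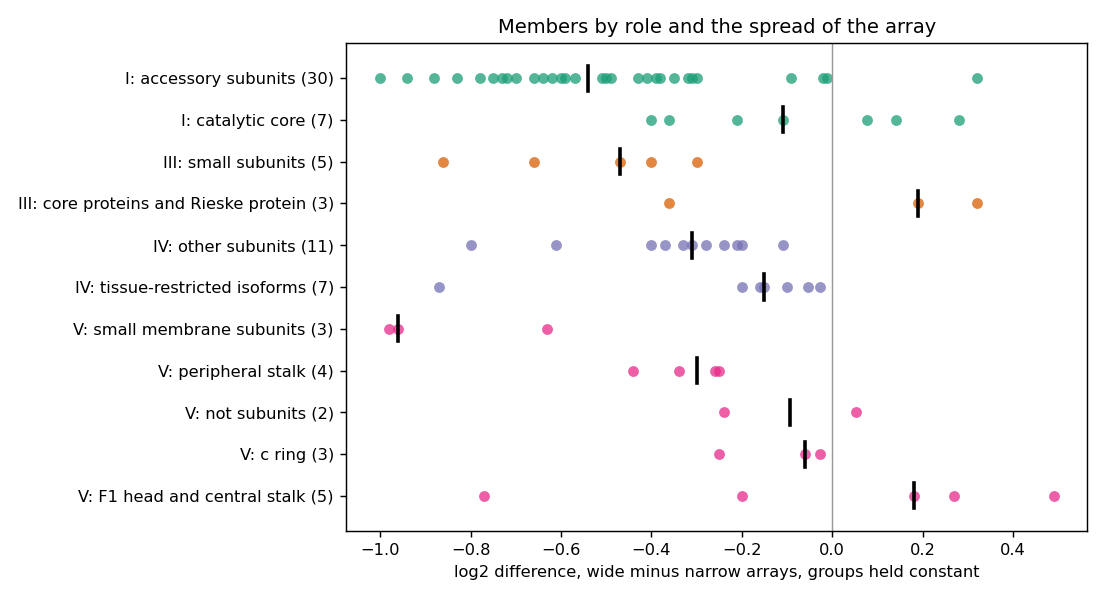
Wide minus narrow coefficient of each of the 80 subunit genes (log2, x axis) by complex and role (y axis), with 1 point per gene and a black tick at the median of each role. The F1 head and stalk and the complex III core proteins have medians above 0 (0.18 and 0.19), and the small membrane subunits of ATP synthase lie lowest, with a median of -0.96.

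The promoters of these genes are shown because many respiratory genes are known targets of NRF1, of ETS factors such as GABPA and of YY1. RefSeq promoters on GRCm38.p6, running from 250 bases before to 50 bases after the gene start, were at hand for 66 of the 80 genes. Each motif was searched on both strands in its spelled form. The shares set beside the counts are over the 27025 RefSeq genes with a promoter, and these were not limited to genes on the arrays. The NRF1 core GCGCATGCG was in the promoters of 8 of the 66 genes (12.1%), against 1.95% of those RefSeq genes. The ETS core CCGGAAG was in 14 (21.2%, against 9.93%), the YY1 core AAGATGGC in 11 (16.7%, against 3.19%) and the SP1 box GGGCGG in 26 (39.4%, against 38.2%). A match of letters is a description and not a binding site. The stretches around the NRF1 core in 7 of them follow 5′ to 3′ on the gene's strand, with the match in capitals, overlapping matches on the opposite strands included.
Atp5g2 (chr15:102671061-102671109, minus strand): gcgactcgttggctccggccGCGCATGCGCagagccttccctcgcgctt
Atp5k (chr5:108434421-108434469, minus strand): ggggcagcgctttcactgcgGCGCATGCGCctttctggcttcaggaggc
Atp5l (chr9:44920955-44920992, minus strand): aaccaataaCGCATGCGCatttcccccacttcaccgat
Cox6a1 (chr5:115349092-115349140, minus strand): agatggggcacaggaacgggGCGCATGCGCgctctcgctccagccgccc
Ndufa11 (chr17:56717682-56717730, plus strand): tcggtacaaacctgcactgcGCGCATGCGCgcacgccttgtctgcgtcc
Ndufa8 (chr2:36049319-36049367, minus strand): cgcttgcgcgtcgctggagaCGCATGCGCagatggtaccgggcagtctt
Uqcrc1 (chr9:108936658-108936697, plus strand): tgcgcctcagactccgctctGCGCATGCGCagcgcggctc

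The whole window is shown for Uqcr11, the complex III gene with the lowest value, and for Atp5s, the one gene called in the averaged starvation effect. With the gene start as position 0, the capitals in Uqcr11 mark the ETS core from position -66 and the NRF1 core from position -5, and those in Atp5s the SP1 box from position -66.
Uqcr11 (chr10:80406772-80407071, minus strand): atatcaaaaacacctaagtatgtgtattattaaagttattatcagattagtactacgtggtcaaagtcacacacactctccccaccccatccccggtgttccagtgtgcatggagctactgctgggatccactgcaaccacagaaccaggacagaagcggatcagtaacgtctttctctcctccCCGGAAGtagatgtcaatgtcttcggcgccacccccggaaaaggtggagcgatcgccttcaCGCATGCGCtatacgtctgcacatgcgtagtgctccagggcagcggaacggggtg
Atp5s (chr12:69724695-69724994, plus strand): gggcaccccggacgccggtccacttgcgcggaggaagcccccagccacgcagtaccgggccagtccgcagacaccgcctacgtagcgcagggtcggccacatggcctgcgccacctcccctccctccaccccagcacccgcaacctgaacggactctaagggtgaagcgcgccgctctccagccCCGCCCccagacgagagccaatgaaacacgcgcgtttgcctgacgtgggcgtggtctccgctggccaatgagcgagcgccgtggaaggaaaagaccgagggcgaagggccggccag

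No subunit gene passed the test between starved and fed livers in KO or in WT mice taken singly. In KO mice 0 of 80 were called, against 1.02% of all genes, and in WT mice 0 of 80, against 1.41% of all genes. At an unadjusted p under 0.05 the starved minus fed difference in KO mice held 1 of 80 subunit genes, Atp5s, against 9.32% of all genes. In WT mice it held 9 of 80 (11.2%), close to the 12.7% of all genes; 2 were higher and 7 lower in starved livers. Averaged over both genotypes, 1 of 80 was called, against 5.16% of all genes, and 10 (12.5%) had an unadjusted p under 0.05, against 17.7% of all genes. The interval of the difference excluded a 2-fold change in either direction for 69 of the 80 genes in KO mice and for 61 in WT mice.

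Most of the subunit genes had lower means in starved livers, though none was called lower. The starved minus fed difference in KO mice was below 0 for 54 of the 80 genes, with a median of -0.095 against -0.026 over all genes, and in WT mice for 60, with a median of -0.14 against -0.0053. Complex I had a median of -0.11 in KO mice (28 of 37 genes below 0) and, the lowest of all, -0.25 in WT mice (32 of 37). Complex III had -0.13 in KO and -0.15 in WT mice, with 6 of 8 genes below 0 in each. Complex IV had -0.061 in KO and -0.097 in WT mice, and complex V -0.026 in KO and -0.064 in WT mice. The pooled SD between mice of the array means was 0.26 for complex I, 0.21 for complex III, 0.18 for complex IV and 0.17 for complex V. Each median was smaller in size than that SD. The SD describes single mice, on wide and narrow arrays together, and is not the standard error of a difference between groups of 3. It therefore does not test the medians. Single arrays moved these medians by over 1.5 times. For complex I the KO median was -0.33 without KO fed F6, -0.30 without KO starved S5 and -0.0082 without KO fed F8, and the WT median -0.43 without WT fed F1, -0.42 without WT starved 3 and -0.17 without WT fed F4. With any 1 array left out, complex III ran from -0.26 to -0.024 in KO and from -0.3 to -0.009 in WT mice, complex IV from -0.14 to 0.023 in KO and from -0.21 to -0.049 in WT mice, and complex V from -0.15 to 0.027 in KO and from -0.093 to 0.0049 in WT mice.

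Those medians moved when arrays of like spread were compared. Calls and adjusted p-values with the block are descriptive throughout, since the spread class was computed from the same values. With the spread of the array as a block, the starved minus fed median in KO mice was 0.031 for complex I, -0.011 for complex III, 0.025 for complex IV and 0.011 for complex V. In WT mice it was -0.09, 0.014, -0.021 and 0.011 for complexes I, III, IV and V in that order. Within the wide arrays alone the complex I median was 0.096 in KO and -0.051 in WT mice, and within the narrow arrays alone -0.026 in KO and -0.21 in WT mice, with 1 or 2 arrays a group in each. Complex III gave 0.089 in KO and 0.025 in WT mice on wide arrays and -0.028 in KO and -0.11 in WT mice on narrow ones. Complex IV gave 0.035 in KO and -0.051 in WT mice on wide arrays and -0.0035 in KO and -0.078 in WT mice on narrow ones. Complex V gave 0.11 in KO and -0.064 in WT mice on wide arrays and -0.017 in KO and -0.013 in WT mice on narrow ones.

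**Figure D3:**
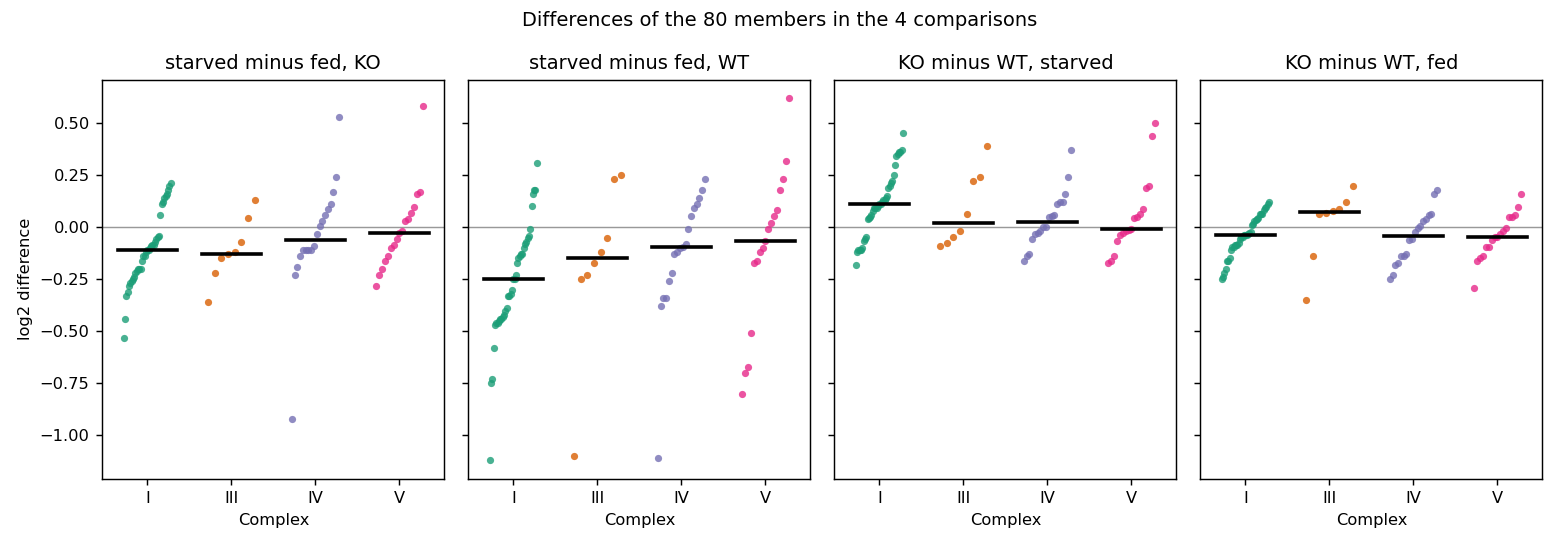
Log2 difference of each of the 80 subunit genes by complex in the 4 comparisons of 2 groups, starved minus fed and KO minus WT, with 1 point per gene and a black line at the median. The complex I median is -0.11 for starved minus fed in KO and -0.25 in WT mice, and 0.11 for KO minus WT in starved livers, and single genes reach -1.12.

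The only gene on the list called in the averaged starvation effect was Atp5s. Its name comes from ATP synthase, but its present RefSeq symbol is Dmac2l, and it encodes a mitochondrial protein known as coupling factor B, a relative of a complex I assembly protein and not a subunit of the enzyme proper. Atp5s measured 8.46, 8.08 and 7.94 in KO starved, 8.1, 8.09 and 8.1 in WT starved, 7.58, 7.42 and 7.73 in KO fed and 7.29, 7.37 and 7.77 in WT fed livers. All 6 starved livers lay above all 6 fed livers, in both genotypes. Averaged over genotypes the starved minus fed difference was 0.60 (SE 0.11, 95% interval 0.35 to 0.85, 1.52-fold; limma adjusted p = 0.0105). It was 0.58 (SE 0.16, adjusted p = 0.14) in KO and 0.62 (SE 0.16, adjusted p = 0.0917) in WT mice, neither of them called by limma, and the interaction was -0.035. Within wide arrays the difference was 0.59 in KO and 0.81 in WT mice, and within narrow arrays 0.81 in KO and 0.53 in WT mice. The only other gene of its kind under the rule was Atp5sl, whose RefSeq symbol is Dmac2 and which is known for a part in complex I assembly. Atp5sl measured 8.13, 8.22 and 8.25 in KO starved, 8.21, 8.22 and 8.04 in WT starved, 8.26, 8.08 and 8.05 in KO fed and 7.98, 7.69 and 8.24 in WT fed livers. These values overlapped between starved and fed livers, with starved minus fed differences of 0.069 in KO and 0.18 in WT mice.

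**Figure D4:**
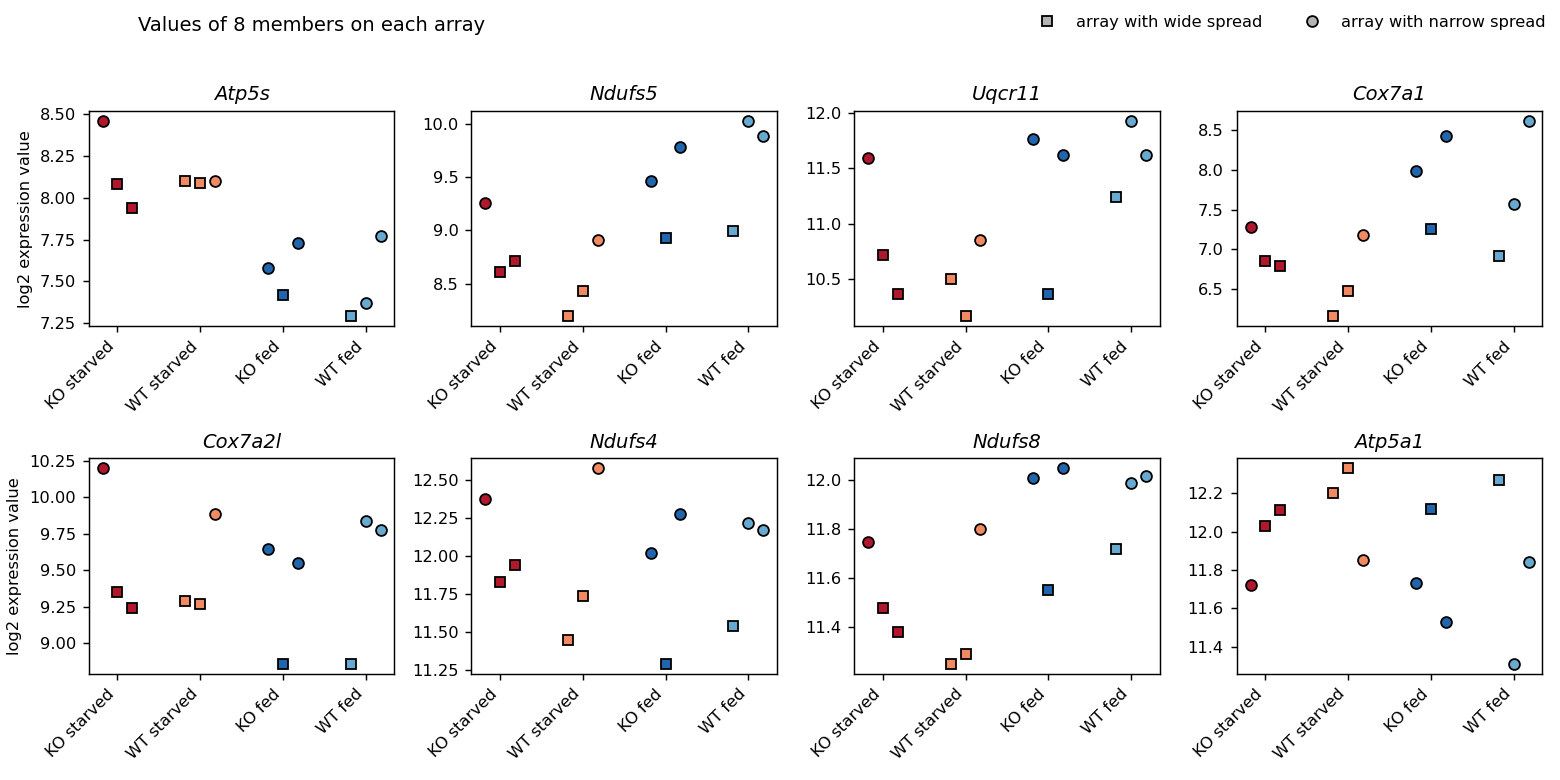
Log2 signal (y axis) of Atp5s, Ndufs5, Uqcr11, Cox7a1, Cox7a2l, Ndufs4, Ndufs8 and Atp5a1 on each of the 12 arrays by group (x axis: KO starved, WT starved, KO fed, WT fed), with squares for wide and circles for narrow arrays. Atp5s lies between 7.94 and 8.46 in all starved livers and between 7.29 and 7.77 in all fed ones; Atp5a1 is the one gene shown in which the wide arrays lie higher.

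Among complex I genes the lowest starved minus fed value was that of Ndufs5, an accessory subunit on the intermembrane-space side. Ndufs5 measured 9.26, 8.61 and 8.71 in KO starved, 8.19, 8.43 and 8.91 in WT starved, 9.46, 8.93 and 9.78 in KO fed and 8.99, 10.03 and 9.89 in WT fed livers. KO starved and KO fed livers overlapped, while the WT starved livers all lay below the WT fed ones. The difference was -0.53 (SE 0.31, adjusted p = 0.709) in KO mice and -1.12 (SE 0.31, adjusted p = 0.117) in WT mice, 2.18-fold lower in starved livers. Neither passed the test in limma, nor did the average of -0.83 (SE 0.22, adjusted p = 0.0538) or the interaction of 0.59 (SE 0.44). With array spread as a block it was called, at -0.88 (adjusted p = 0.00174) in WT mice and -0.59 (adjusted p = 0.00116) in the average, and within arrays of like spread the WT difference was -0.68 on wide and -1.04 on narrow arrays. Ndufs5 has 2 lines in the table, and the other, dimmer one gave -0.31 in KO and -0.68 in WT mice.

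Ndufa8, another accessory subunit of the intermembrane-space side, had the highest value of complex I in WT mice. It measured 10.6, 10.54 and 10.55 in KO starved, 10.63, 10.82 and 10.57 in WT starved, 10.48, 10.2 and 10.59 in KO fed and 10.28, 10.32 and 10.48 in WT fed livers. The KO livers overlapped, and WT starved livers lay above WT fed ones. The difference was 0.14 (SE 0.12, adjusted p = 0.869) in KO and 0.31 (SE 0.12, adjusted p = 0.287) in WT mice, neither past limma's threshold. Ndufs8, an iron-sulfur core subunit, measured 11.75, 11.48 and 11.38 in KO starved, 11.25, 11.29 and 11.8 in WT starved, 12.01, 11.55 and 12.05 in KO fed and 11.72, 11.99 and 12.02 in WT fed livers. Starved livers lay lower than fed ones among the wide arrays and again among the narrow ones, but not across both. Its difference was -0.33 in KO mice (adjusted p = 0.682), -0.46 in WT mice (adjusted p = 0.314) and -0.4 in the average (adjusted p = 0.119), and -0.26 with the block (limma adjusted p = 0.0234).

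Ndufs4, an accessory subunit whose loss in mice gives a Leigh-like disease, measured 12.38, 11.83 and 11.94 in KO starved, 11.45, 11.74 and 12.58 in WT starved, 12.02, 11.29 and 12.28 in KO fed and 11.54, 12.22 and 12.17 in WT fed livers. Its averaged starved minus fed difference was 0.065 (adjusted p = 0.925) and, with the block, 0.31 (limma adjusted p = 0.048). Narrow starved arrays lay above narrow fed ones, and wide ones overlapped. Ndufa10 measured 10.92, 11.23 and 11.25 in KO starved, 11.32, 11.54 and 11.09 in WT starved, 10.97, 11.03 and 10.77 in KO fed and 11.46, 10.91 and 11.06 in WT fed livers, and had the highest starved minus fed value of complex I in KO mice, 0.21 (SE 0.17), and the lowest KO minus WT value in starved livers, -0.18 (SE 0.17). Both comparisons overlapped between groups. By role, 28 of the 30 accessory subunits were below 0 in WT mice (median -0.32), against 4 of the 7 core subunits (median -0.08). In KO mice the medians were -0.13 for accessory and -0.049 for core subunits. With the block the accessory median was -0.15 in WT and 0.035 in KO mice, and the core median 0.019 and -0.016. The wide minus narrow coefficient was also lower in accessory (-0.54) than in core subunits (-0.11), and starved groups held more wide arrays.

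In complex III the small subunit Uqcr11 stood lowest. Uqcr11 measured 11.59, 10.72 and 10.36 in KO starved, 10.5, 10.16 and 10.85 in WT starved, 11.77, 10.36 and 11.62 in KO fed and 11.24, 11.93 and 11.62 in WT fed livers. KO livers overlapped, and all WT starved livers lay below all WT fed ones. The difference was -0.36 (SE 0.39, adjusted p = 0.913) in KO mice, -1.1 (SE 0.39, adjusted p = 0.243) in WT mice and -0.73 in the average (adjusted p = 0.182), with an interaction of 0.74 (SE 0.55), none of them called by limma. With the block the WT difference was -0.81 (limma adjusted p = 0.0231), and within arrays of like spread it was -0.91 on wide and -0.92 on narrow ones. The core proteins Uqcrc1 and Uqcrc2, which carry no redox centre, had values above 0. Uqcrc1 measured 10.92, 11.09 and 11.2 in KO starved, 11.16, 11.51 and 10.68 in WT starved, 10.95, 11.04 and 10.84 in KO fed and 11.05, 10.6 and 11.0 in WT fed livers, with differences of 0.13 (SE 0.19) in KO and 0.23 (SE 0.19) in WT mice. Uqcrc2 measured 12.41, 12.57 and 12.6 in KO starved, 12.61, 12.66 and 12.59 in WT starved, 12.46, 12.6 and 12.4 in KO fed and 12.61, 11.98 and 12.5 in WT fed livers, with differences of 0.042 (SE 0.15) in KO and 0.25 (SE 0.15) in WT mice. Starved and fed livers overlapped for both genes in KO mice and in WT mice.

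Complex IV holds several subunits in alternative forms, a common one and one found mainly in heart and skeletal muscle, lung or testis. Cox7a1, the form of subunit VIIa of heart, skeletal muscle and brown fat, had the lowest starved minus fed value. Cox7a1 measured 7.28, 6.85 and 6.79 in KO starved, 6.15, 6.47 and 7.18 in WT starved, 7.99, 7.25 and 8.43 in KO fed and 6.92, 7.57 and 8.62 in WT fed livers. Starved and fed livers overlapped in each genotype. The difference was -0.92 (SE 0.42, adjusted p = 0.536) in KO mice, -1.11 (SE 0.42, adjusted p = 0.282) in WT mice and -1.01 (SE 0.30, adjusted p = 0.0794) in the average, none called by limma; with the block the average was -0.72 (adjusted p = 0.0156). A pair of marker lists belongs beside it. The striated muscle list (7 of 7 genes found) averaged 6.21 to 6.28 in KO starved, 6.21 to 6.47 in WT starved, 6.26 to 6.35 in KO fed and 6.3 to 6.41 in WT fed livers, with 0 genes called. The brown fat list (4 of 4 found) averaged 7.54 to 7.73 in KO starved, 7.75 to 7.89 in WT starved, 8.02 to 8.35 in KO fed and 8.05 to 8.65 in WT fed livers, without overlap between starved and fed. Of its genes only Elovl3, which liver also expresses, was called (-2.06, SE 0.17, limma adjusted p = 8.95e-05 in the average). Over the 12 arrays Ucp1 lay between 4.71 and 4.99, Cidea between 5.05 and 5.86 and Pm20d1 between 8.96 and 11.3. Their averaged starved minus fed differences were 0.059, -0.11 and -0.083 in that order. The part of either tissue in the Cox7a1 values was not tested.

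Cox7a2, the form of the same subunit in liver, measured 11.63, 11.13 and 11.0 in KO starved, 10.89, 11.05 and 11.32 in WT starved, 11.58, 10.81 and 11.65 in KO fed and 10.88, 11.65 and 11.52 in WT fed livers, with differences of -0.091 (SE 0.27) in KO and -0.26 (SE 0.27) in WT mice. Starved and fed livers overlapped. Cox7a2l, a relative that joins complexes III and IV into supercomplexes, measured 10.2, 9.35 and 9.24 in KO starved, 9.29, 9.27 and 9.89 in WT starved, 9.65, 8.86 and 9.55 in KO fed and 8.86, 9.84 and 9.78 in WT fed livers. Narrow starved arrays lay above narrow fed ones and wide starved arrays above wide fed ones, while across both kinds of array the groups overlapped. Without regard to spread the difference was 0.24 in KO mice, -0.0089 in WT mice and 0.12 in the average (adjusted p = 0.855). With the block it was 0.51 in KO mice (adjusted p = 0.0124) and 0.38 in the average (adjusted p = 0.00421), both called by limma. The KO difference was 0.44 within wide and 0.60 within narrow arrays.

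The other forms gave no call in any comparison, without or with array spread as a block. Cox6a1, the liver form of subunit VIa, measured 11.63, 11.35 and 11.34 in KO starved, 11.24, 11.4 and 11.68 in WT starved, 11.65, 11.36 and 11.89 in KO fed and 11.4, 12.1 and 11.83 in WT fed livers, with starved minus fed differences of -0.19 (SE 0.20) in KO and -0.34 (SE 0.20) in WT mice. Cox6a2, its heart and muscle form, measured 6.96, 6.93 and 6.96 in KO starved, 6.98, 6.97 and 7.31 in WT starved, 6.92, 6.99 and 6.85 in KO fed and 6.99, 6.92 and 7.01 in WT fed livers, with differences of 0.032 (SE 0.11) in KO and 0.11 (SE 0.11) in WT mice. The groups overlapped in each of these comparisons. Cox8a, the common form of subunit VIII, measured 12.27, 12.18 and 12.12 in KO starved, 12.07, 12.22 and 12.37 in WT starved, 12.39, 12.06 and 12.45 in KO fed and 12.23, 12.33 and 12.4 in WT fed livers, with differences of -0.11 (SE 0.13) in KO and -0.099 (SE 0.13) in WT mice. Cox8b, its muscle form, measured 6.07, 5.84 and 5.86 in KO starved, 6.03, 6.13 and 6.1 in WT starved, 5.79, 5.76 and 5.89 in KO fed and 5.93, 6.09 and 5.95 in WT fed livers, with differences of 0.11 (SE 0.10) in KO and 0.093 (SE 0.10) in WT mice. Starved and fed livers overlapped for both.

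Cox4i1, the common form of subunit IV, measured 11.53, 11.09 and 11.11 in KO starved, 10.97, 10.96 and 11.08 in WT starved, 11.22, 10.88 and 11.37 in KO fed and 10.78, 11.14 and 11.44 in WT fed livers, with starved minus fed differences of 0.087 (SE 0.19) in KO and -0.12 (SE 0.19) in WT mice. Cox4i2, its lung form, measured 6.19, 6.1 and 6.03 in KO starved, 5.97, 6.18 and 6.56 in WT starved, 5.98, 6.26 and 6.06 in KO fed and 6.28, 5.98 and 6.03 in WT fed livers, with differences of 0.0059 (SE 0.15) in KO and 0.14 (SE 0.15) in WT mice. Both overlapped between starved and fed livers. Cox6b1, the common form of subunit VIb, measured 12.06, 11.77 and 11.69 in KO starved, 11.75, 11.84 and 11.98 in WT starved, 12.4, 11.69 and 12.12 in KO fed and 12.09, 12.43 and 12.2 in WT fed livers. Its WT starved livers lay below its WT fed ones, with differences of -0.23 (SE 0.18) in KO and -0.38 (SE 0.18, limma adjusted p = 0.399) in WT mice. Cox6b2, the testis form, measured 6.37, 7.33 and 8.24 in KO starved, 7.59, 6.63 and 7.56 in WT starved, 6.52, 6.49 and 7.34 in KO fed and 6.28, 7.25 and 7.57 in WT fed livers, the widest scatter within a group among these pairs. Its differences, 0.53 (SE 0.47) in KO and 0.23 (SE 0.47) in WT mice, were the highest of complex IV and lay within that scatter. Cox7b2, the testis form of subunit VIIb, measured 4.8, 4.96 and 4.8 in KO starved, 4.59, 4.57 and 5.03 in WT starved, 4.73, 4.55 and 4.77 in KO fed and 4.65, 4.96 and 4.82 in WT fed livers. Its KO starved livers lay above its KO fed ones, with differences of 0.17 (SE 0.14) in KO and -0.081 (SE 0.14) in WT mice, neither called. Cox8c, a testis form of subunit VIII, measured 6.72, 6.46 and 6.45 in KO starved, 6.44, 6.46 and 6.9 in WT starved, 6.32, 6.42 and 6.71 in KO fed and 6.54, 6.26 and 6.46 in WT fed livers, with overlap in both genotypes and differences of 0.059 (SE 0.16) in KO and 0.18 (SE 0.16) in WT mice. Over the 7 tissue-restricted forms the median was 0.059 in KO and 0.11 in WT mice.

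In complex V the lowest starved minus fed value in WT mice was that of Atp5e, the epsilon subunit of the central stalk. Atp5e measured 10.18, 9.28 and 9.13 in KO starved, 8.92, 9.05 and 9.12 in WT starved, 9.98, 8.92 and 10.38 in KO fed and 9.36, 9.89 and 10.22 in WT fed livers. The KO livers overlapped, and WT starved livers all lay below WT fed ones. The difference was -0.23 (SE 0.37) in KO and -0.8 (SE 0.37, limma adjusted p = 0.40) in WT mice. The 3 small membrane subunits followed, with a median of -0.20 in KO and -0.67 in WT mice. Atp5k measured 9.45, 8.71 and 8.2 in KO starved, 8.31, 8.54 and 8.89 in WT starved, 9.29, 7.97 and 9.7 in KO fed and 8.65, 9.69 and 9.48 in WT fed livers, with differences of -0.20 (SE 0.44) in KO and -0.70 (SE 0.44) in WT mice. Atp5j2, subunit f, measured 12.44, 11.97 and 11.74 in KO starved, 11.6, 11.75 and 12.22 in WT starved, 12.57, 11.74 and 12.66 in KO fed and 12.03, 12.54 and 12.54 in WT fed livers, with -0.28 (SE 0.27), the lowest value of the complex, in KO and -0.51 (SE 0.27) in WT mice. Both overlapped between starved and fed livers. With the block the median of the 3 was 0.13 in KO and -0.35 in WT mice. Atp5a1, the alpha subunit, measured 11.72, 12.03 and 12.11 in KO starved, 12.2, 12.33 and 11.85 in WT starved, 11.73, 12.12 and 11.53 in KO fed and 12.27, 11.31 and 11.84 in WT fed livers, with 0.16 (SE 0.24) in KO and 0.32 (SE 0.24) in WT mice, again with overlap. The 3 genes of the c ring, Atp5g1, Atp5g2 and Atp5g3, which encode the same mature protein, lay between -0.16 and 0.17 in KO and between -0.10 and 0.081 in WT mice.

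Counted by whether groups overlapped, the shares of subunit genes lay near or below those of all genes. In KO mice none was lower in every starved than in every fed liver (against 9.87% of all genes) and 3 were higher, Atp5s, Cox7b2 and Ndufv1 (3.75%, against 6.61%). In WT mice 6 were lower (7.5%, against 7.73%): Atp5e, Cox6b1, Ndufa11, Ndufa3, Ndufs5 and Uqcr11. Another 2, Atp5s and Ndufa8, were higher (2.5%, against 5.27%). The 8 genes with the NRF1 core in their promoters differed among themselves in sign. The starved minus fed difference in WT mice was -1.1 for Uqcr11, -0.70 for Atp5k, -0.67 for Atp5l, -0.47 for Ndufa11, -0.34 for Cox6a1, 0.081 for Atp5g2, 0.23 for Uqcrc1 and 0.31 for Ndufa8, none of them called.

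With array spread as a block the number of calls grew in the subunit genes and in all genes. In KO mice 2 of 80 were then called (Atp5s and Cox7a2l), against 4.25% of all genes, and in WT mice 3 (Atp5s, Ndufs5 and Uqcr11), against 5.91%. Averaged over genotypes 6 were called, against 10.8%: Atp5s, Cox7a2l and Ndufs4 higher and Ndufs5, Cox7a1 and Ndufs8 lower in starved livers. At an unadjusted p under 0.05 the block left 9 of 80 in KO mice (11.2%, against 15.6% of all genes), 17 in WT mice (21.2%, against 18.8%) and 16 in the average (20%, against 22.5%). Weighting arrays by their fit to the group means gave 48 of 80 in KO mice (36.9% of all genes), 42 in WT mice (27%) and 61 in the average (45.8%). The array with the least weight, 0.206, was WT starved 3, the narrow array of its group. KO starved S5, also narrow, had 0.434, against 1.24 to 4.34 on the wide starved arrays. In the fed groups the wide arrays had 0.359 and 0.365, and the narrow ones 0.416 and 4.01 in WT and 0.638 and 6.14 in KO mice. Weighted starved minus fed differences therefore leaned on wide starved and narrow fed arrays. Starvation and array spread cannot be told apart in these counts. The averaged count also rested on single arrays: it was 2 without KO starved S5 (3.99% of all genes), 4 without WT starved 3 (7.76%), 7 without KO fed F6 (6.09%) and 4 without WT fed F1 (6.56%), and 1 without any other array.

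**Figure D5:**
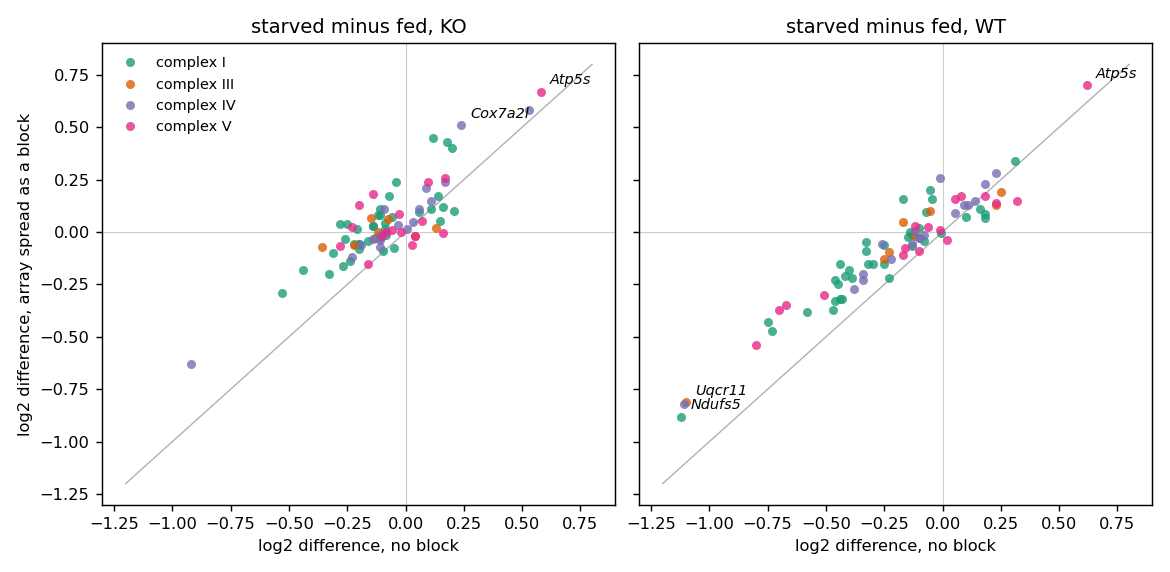
Starved minus fed log2 difference of each of the 80 subunit genes in KO mice (left) and in WT mice (right). The x axis is without and the y axis with the spread of the array as a block, and genes called by limma with the block are labelled. The labelled genes are Atp5s and Cox7a2l in KO mice and Atp5s, Ndufs5 and Uqcr11 in WT mice. The complex I points have a median of -0.11 without and 0.031 with the block in KO mice, and of -0.25 and -0.09 in WT mice.

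No subunit gene passed the test between KO and WT livers. In starved mice 0 of 80 were called, and in fed mice 0 of 80; over all genes the share called was 0% in both. At an unadjusted p under 0.05 none of the 80 differed in starved livers, against 3.59% of all genes, and none in fed livers, against 2.91%. Averaged over feeding states 0 were called, against 0% of all genes, and 3 had an unadjusted p under 0.05 (Atp5g3, Cox8b and Ndufv3), against 4.65%. With the block the share called over all genes was 0% in starved livers, 0.0193% in fed livers and 0% in the average, with 0 subunit genes in each. The block raised the counts at an unadjusted p under 0.05 to 10 of 80 in starved livers (12.5%, against 8.55% of all genes), 1 in fed livers (1.25%, against 7.1%) and 6 in the average (7.5%, against 9.79%). The 10 were Atp5e, Atp5l, Cox4i1, Ndufa1, Ndufa7, Ndufb3, Ndufb8, Ndufs5, Ndufv3 and Uqcrq. The interval excluded a 2-fold difference in either direction for 68 of the 80 genes in starved and 74 in fed livers, with 3 mice a group.

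By complex the KO minus WT medians in starved livers were 0.11 for complex I, 0.021 for complex III, 0.026 for complex IV and -0.0085 for complex V, against -0.033 over all genes. In fed livers they were -0.038 for complex I, 0.074 for complex III, -0.04 for complex IV and -0.045 for complex V, against -0.014. Here too single arrays set the size and the sign. Without KO starved S5 the starved medians were -0.03 for complex I, -0.02 for complex III, -0.075 for complex IV and -0.064 for complex V, and without WT starved 3 they were 0.22, 0.099, 0.12 and 0.063 in the same order. Without KO fed F6 the fed medians were 0.15, 0.14, 0.075 and 0.1, and without WT fed F1 they were -0.16, -0.049, -0.18 and -0.13 in that order. The highest value of each complex in starved livers was 0.50 (SE 0.37) for Atp5e, 0.45 (SE 0.40) for Ndufa1, 0.39 (SE 0.39) for Uqcr11 and 0.37 (SE 0.42) for Cox7a1. Ndufa1, a small accessory subunit of complex I, measured 9.34, 8.69 and 8.36 in KO starved, 8.16, 8.1 and 8.78 in WT starved, 9.26, 8.34 and 9.61 in KO fed and 8.28, 9.53 and 9.48 in WT fed livers. Its KO and WT livers overlapped in both feeding states. The lowest value of each complex in fed livers was -0.35 (SE 0.39) for Uqcr11, -0.29 (SE 0.44) for Atp5k, -0.25 (SE 0.31) for Ndufs5 and -0.25 (SE 0.47) for Cox6b2. The highest value in fed livers was 0.20 (SE 0.31) for Uqcr10, a small subunit of complex III. Uqcr10 measured 10.54, 9.89 and 9.8 in KO starved, 9.68, 9.91 and 9.98 in WT starved, 10.4, 9.58 and 10.71 in KO fed and 9.49, 10.08 and 10.52 in WT fed livers, with overlap in both states. The adjusted p of limma was 1 for each of these.

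A few genes had KO and WT livers that did not overlap. In starved mice Atp5e, Cox4i1 and Ndufv3 were higher in all KO livers (3.75%, against 3.51% of all genes), and Atp5g3 and Cox6a2 lower (2.5%, against 6.3%). In fed mice Atp5c1, the gamma subunit of ATP synthase, and Cox8b were lower in all KO livers (2.5%, against 5.36%), and none was higher (against 2.61%). Ndufv3, an accessory subunit of the NADH-binding module, measured 9.07, 9.18 and 9.1 in KO starved, 8.99, 8.81 and 8.81 in WT starved, 9.18, 9.08 and 9.38 in KO fed and 9.07, 8.96 and 9.27 in WT fed livers. The KO starved livers lay above the WT starved ones, the fed livers overlapped, and the differences were 0.25 (SE 0.12) in starved and 0.12 (SE 0.12) in fed mice, with an adjusted p of 1 in limma for both.

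The response to starvation was not shown to differ between KO and WT livers in any subunit gene. The interaction called 0 of 80 genes, against 0% of all genes, and 0 had an unadjusted p under 0.05, against 2.04%. With the block 0 were called, against 0%, and 5 (Atp5l, Ndufa1, Ndufb8, Ndufs5 and Uqcr11) had an unadjusted p under 0.05 (6.25%, against 5.77%). Its median was 0.14 over complex I, 0.0065 over complex III, 0.13 over complex IV and 0.022 over complex V, against -0.018 over all genes. The interval excluded a 2-fold difference between the responses in either direction for 58 of the 80 genes. The responses of KO and WT mice and the KO minus WT differences share arrays, so their values stand side by side and were not set against each other as independent results.

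Genes around the chain were described from lists of carriers, assembly factors and regulators. Complex II and the mobile carriers had 11 of 11 genes on the array, complex I assembly 11 of 13, complex III assembly 4 of 6, complex IV assembly 11 of 21, complex V assembly, inhibitor and substrate carriers 8 of 8, and the regulators of mitochondrial genes 15 of 17. No gene of any of these lists was called in KO starved against KO fed livers (against 1.02% of all genes). None was called in any KO minus WT comparison or in the interaction (0% of all genes in each). In WT starved against WT fed livers 1 was called (against 1.41% of all genes). That was Ppargc1a, the coactivator that drives mitochondrial and gluconeogenic genes in the fasted liver. Ppargc1a measured 9.16, 9.0 and 9.16 in KO starved, 10.23, 10.52 and 8.56 in WT starved, 7.24, 7.91 and 7.27 in KO fed and 8.14, 7.28 and 7.77 in WT fed livers. All starved livers lay above all fed ones. The difference was 1.63 (adjusted p = 0.112) in KO mice, not called, and Ppargc1a rose by 2.04 (SE 0.42, adjusted p = 0.0408) in WT mice and by 1.84 (SE 0.30, adjusted p = 0.00485) averaged over genotypes in limma.

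In the average over genotypes 3 more genes were called. With Ppargc1a, the calls were 1 of 11 for complex II and carriers, 1 of 11 for complex IV assembly and 2 of 15 for the regulators. The other lists had 0, and the share of all genes called in this contrast was 5.16%. Etfdh, which passes electrons from fatty acid oxidation to ubiquinone, measured 11.32, 11.76 and 11.84 in KO starved, 12.02, 11.69 and 11.22 in WT starved, 10.92, 11.23 and 10.66 in KO fed and 11.35, 10.53 and 10.81 in WT fed livers, and rose by 0.72 (SE 0.18, adjusted p = 0.0404). Tfb2m, a factor that starts transcription of mitochondrial DNA, measured 10.24, 10.16 and 10.21 in KO starved, 10.18, 10.36 and 10.07 in WT starved, 9.88, 9.82 and 9.69 in KO fed and 9.91, 9.5 and 9.83 in WT fed livers, and rose by 0.43 (SE 0.089, adjusted p = 0.0165). Sco1, which delivers copper to complex IV, measured 7.32, 7.34 and 7.39 in KO starved, 7.43, 7.33 and 7.01 in WT starved, 7.56, 7.54 and 7.71 in KO fed and 7.76, 7.75 and 7.86 in WT fed livers, and fell by 0.39 (SE 0.083, limma adjusted p = 0.0179). Starved and fed livers did not overlap for Tfb2m or Sco1, and overlapped for Etfdh. The starved minus fed difference in WT mice was 0.058 for Nrf1, 0.28 for Gabpa, 0.18 for Yy1 and 0.13 for Esrra, which encode transcription factors known to bind promoters of respiratory genes, and -0.18 for Tfam, the packaging factor of mitochondrial DNA; none was called. List medians of the starved minus fed difference in KO mice were -0.034 for complex II and carriers, -0.074 for complex I assembly, -0.12 for complex III assembly, 0.037 for complex IV assembly, 0.11 for the complex V list and 0.18 for the regulators. In WT mice they were -0.13, -0.31, -0.16, -0.12, 0.0017 and 0.20 in the same order.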

How the data were processed

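The deposited table holds log2 expression values of 12 arrays, made by the authors with RMA (background correction, quantile normalization and summary of probes) and the oligo and limma packages, per the submitters' processing notes; versions, array build and annotation release are not given in the sources used here. Quantile normalization gives the arrays similar distributions, so a value is relative to the other genes of its array. All 347328 values of the deposited series matrix were equal to those of the table within 1e-9. Of 28944 lines, 5132 carried no symbol, and 1 line was kept for each of 20719 symbols, the one with the highest mean over the 12 arrays. The 80 subunit genes came from 106 lines, and 19 had several. Their lines differed by at most 0.44 (Ndufs5) in the starved minus fed difference of WT mice, with opposite signs for 1 gene there, 0 in KO mice, 2 in KO minus WT fed and 4 in KO minus WT starved livers. All 80 matched RefSeq by accession, and the symbols are those of the file.

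Groups came from the sample labels, with 3 mice in each. Group means of all 4 groups were fitted together with limma 3.58.1 in R 4.3.3 (lmFit and eBayes, 8 residual degrees of freedom, 3.384 prior degrees of freedom, median residual SD 0.186). For each of the 7 contrasts p-values were adjusted over all genes (Benjamini-Hochberg), with calls under 0.05. The procedure was run on simulated data with independent noise in each gene and array. Those data held no shift shared by many genes of an array, so they do not cover the effect of array spread. Tables and figures were made with Python 3.11.15, pandas 2.3.3 and matplotlib 3.10.9. The subunit genes, the other gene lists and the array spread classes were chosen with earlier results of these data known. Values on every array are given for genes called in any contrast, for the highest and lowest difference of each complex in each comparison of 2 groups, and for 5 paired forms of complex IV. Ndufs4, Ndufs8, Cox7a2l, Cox7b2 and Cox8c were added after their values were seen. Alternatives covered the choice of line, a filter on dim genes, cyclic loess, median centring, array weights, another variance prior, fits of 2 groups, the number in the title as a block, array spread as a block, and each array left out. With the number in the title as a block, limma estimated a residual correlation of 0.023 within blocks after the group means. The labels do not say whether equal numbers mark paired mice, and this value cannot settle it.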

Additional observations from a re-analysis of the deposited data

How the results depend on the processing

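The call of Atp5s in the averaged starvation effect held in all 20 alternatives, with differences of 0.53 to 0.68 and limma adjusted p of 0.00771 to 0.0321 when each array was left out. No alternative called a subunit gene in any KO minus WT comparison or in the interaction. The largest shares of all genes called there came with array weights. They were 6.12% for KO minus WT in fed livers, 0.0627% in starved livers, 0.821% in the average and 0.512% in the interaction. With array spread as a block the count of subunit genes called was 2 in KO starved minus fed, 3 in WT starved minus fed and 6 in the average, and with array weights it was 48, 42 and 61 in that order (7639, 5600 and 9499 of all genes). Weights also moved the median difference of complex I to -0.39 in KO and -0.52 in WT mice and that of complex III to -0.43 in WT mice. Without the genes under the 25th percentile of mean level, 2 of the 79 subunit genes left were called in the average (Atp5s and Ndufs5), against 7.18% of all genes left. Leaving out each array gave 0 to 1 call in WT mice (Ndufs5 without WT fed F1), with 64 to 659 of all genes called, and 1 to 7 in the average, highest without KO fed F6, with 625 to 1608 of all genes. Array weights ran from 0.206 for WT starved 3 to 6.14 for KO fed F5. In each fed group the narrow arrays had the higher weights, and in each starved group the wide ones. The cause of these shifts was not tested. Of the 16 complex medians only 3 kept their sign in all 21 alternatives, all for starved minus fed: complex III in KO mice (-0.31 to -0.011), complex I in WT mice (-0.52 to -0.09) and complex IV in WT mice (-0.27 to -0.021). The other 13 changed sign in 1 to 7 of 21, most often complex V in KO minus WT starved livers (7), complex V in KO starved minus fed (4), complex III in KO minus WT fed livers (4) and complex I in KO minus WT fed livers (3). Some of the 21 could not move a median. Another variance prior, fits of 2 groups and leaving out an array outside the 2 groups keep the fitted differences as they are. The counts out of 21 thus include fits whose sign was fixed in advance.

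The number in the title as a random replicate block left the counts at 0 in each comparison of 2 groups and in the interaction and at 1 in the average. Of all genes it called 1.08% for starved minus fed in KO mice, 1.45% in WT mice and 5.26% in the average. The share was 0% in KO minus WT fed and starved livers and in the interaction. The labels do not say what the numbers stand for, so this block is not known to pair mice.

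With 3 arrays a group, intervals ran up to 1.03 either side for a subunit gene between 2 groups and up to 1.46 in the interaction. Signal over background is not in the table.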

Other observations

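Genes around the chain that limma called only with array spread as a block include several not yet described. In the averaged starvation effect Atpif1, the inhibitor of ATP synthase, had -0.30 (adjusted p = 0.0445) with the block and -0.52 (adjusted p = 0.204) without it. Ucp2, a mitochondrial carrier of the uncoupling protein family, had 0.35 (adjusted p = 0.0436) with and 0.50 (adjusted p = 0.11) without it. Acad9, an assembly factor of complex I, had -0.30 (adjusted p = 0.0276) with and -0.23 (adjusted p = 0.216) without it. Cox18, which inserts a complex IV subunit into the inner membrane, had -0.43 (adjusted p = 0.0252) with and -0.38 (adjusted p = 0.0968) without it. Tfb1m, a methyltransferase of mitochondrial ribosomal RNA, had 0.38 (adjusted p = 0.0252) with and 0.29 (adjusted p = 0.264) without it. Ppargc1a was called with the block in KO mice too, at 1.38 (adjusted p = 0.0181), against 1.63 (adjusted p = 0.112) without it.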
